A study of Mus musculus with 16 samples.

Results

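The 33 genes described here act in G2 and mitosis, the stretch of the cell cycle in which a cell prepares for and carries out division. They were chosen by symbol as a cell cycle group, and all 33 were found among the 55401 genes of the deposited count table. Their mRNA was measured in input libraries of MC38 cells, a mouse colon adenocarcinoma line, that the labels give as Ythdf2-KO (n = 3) or WT (n = 3), with both groups grown in DMEM with FBS and antibiotics. Sample titles carry the tags gY2 (Ythdf2-KO) and gNC (WT). If these tags name guides, the WT cells carry a control guide and are not unmodified, which the labels do not state. The labels do not say whether a group is 1 clone or a pool, nor whether its replicates are separate cultures. P-values therefore cover only the spread between these libraries. For the same genes the authors deposited peak lists from N6-methyladenosine (m6A) immunoprecipitation in Ythdf2-KO cells and in WT cells, and from YTHDF2 RNA immunoprecipitation (RIP) in WT cells. YTHDF2 is a protein that binds m6A, a base modification of mRNA, and brings deadenylases to the transcript.

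Entry into mitosis is driven by the kinase CDK1 with cyclin B, and exit by the anaphase-promoting complex, a ubiquitin ligase that CDC20 activates once the spindle checkpoint is satisfied. The mRNAs of these proteins are made in late S phase and G2, when the MuvB complex, first with B-MYB and then with FOXM1, turns on promoters that its DREAM form keeps off in resting cells. MKI67 and TOP2A, made from genes of this group, are widely used as markers of proliferating tumour cells. In bulk RNA, more cells in G2 or mitosis and more of these mRNAs per cell cannot be told apart.

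Total counts ran from 48736352 to 50959555 in the KO-labelled libraries and from 45441281 to 50885512 in the WT libraries, and each of the 33 genes had 1214 to 31302 counts in every library. Levels are in CPM, the counts set against TMM-scaled library size, and fold changes are KO-labelled over WT. Reads over the whole Ythdf2 gene do not check the knockout: they came to 67.9, 59.8 and 61.5 CPM in the KO-labelled libraries and 55.6, 68.6 and 59.7 CPM in the WT libraries, so every direction below rests on the labels. On the first principal component, which held 51.4% of the variance, KO-labelled replicate 1 lay at -10.4, the other 2 KO-labelled libraries at 64.1 and 63.2, and the WT libraries between -39.2 and -38.6. Results are therefore given with and without KO-labelled replicate 1. The epithelial markers Epcam, Krt18 and Cldn7 had no count in any library, and all 9 epithelial markers summed to 0.796 to 1.08 CPM in the KO-labelled libraries and 1.09 to 1.27 CPM in the WT libraries, which is little for a line derived from colon epithelium. The 13 leukocyte markers summed to 52.7 to 130 CPM in the KO-labelled libraries and 68.6 to 88.1 CPM in the WT libraries, most of it Cd68, while Cd8a, Ncr1 and Adgre1 were at 0 and 1 gene, Cd3d, fell past the threshold at levels of 0.284 to 0.544 CPM in the KO-labelled libraries and 0.973 to 1.26 CPM in the WT libraries. The 6 endothelial markers summed to 1.32 to 2.68 CPM in the KO-labelled libraries and 0.978 to 1.44 CPM in the WT libraries. The 9 fibroblast markers summed to 2644, 1505 and 1535 CPM in the KO-labelled libraries and to 2679, 2120 and 2157 CPM in the WT libraries, most of it Col3a1. In the fibroblast list 1 of 8 tested genes, Dcn, fell past the threshold and none rose. Without KO-labelled replicate 1, in the fit that calls most genes of the group below, 7 of the 8 fell, among them Col1a2 (log2 fold change -4.39, edgeR adjusted p = 3.39e-05), and 1, Pdgfra, rose. In the same fit Cd68 rose (log2 fold change 0.83, adjusted p = 0.0024) and 2 other leukocyte markers fell, and 1 endothelial marker rose. Over all genes, that fit called 19.8% higher and 16.9% lower. The part of these markers in the results below was not tested.

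The group as a whole lay higher in KO-labelled cells. With all 6 libraries, 5 of the 33 genes rose and none fell, and 28 did not pass (edgeR quasi-likelihood F test over 18969 genes, Benjamini-Hochberg adjusted p below 0.05), while 2.99% of all genes tested rose and 1.54% fell. The genes that rose were Mki67, Foxm1, Gtse1, Plk1 and Cenpa. The median log2 fold change was 0.38, a 1.30-fold difference, against -0.0055 over all genes tested, and 32 of the 33 fold changes were above 0. All changes were modest: the largest was 1.54-fold and none reached 2-fold. All 3 KO-labelled libraries exceeded all 3 WT libraries for 25 genes, and for no gene did they all lie below them, while over all genes 17.7% showed the first pattern. At an unadjusted p below 0.05, 29 genes were higher, beside 16.9% of all genes. Summed over the group, the mRNAs came to 5457, 6636 and 6715 CPM in the KO-labelled libraries and to 4697, 5086 and 4975 CPM in the WT libraries.

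**Figure D1:**
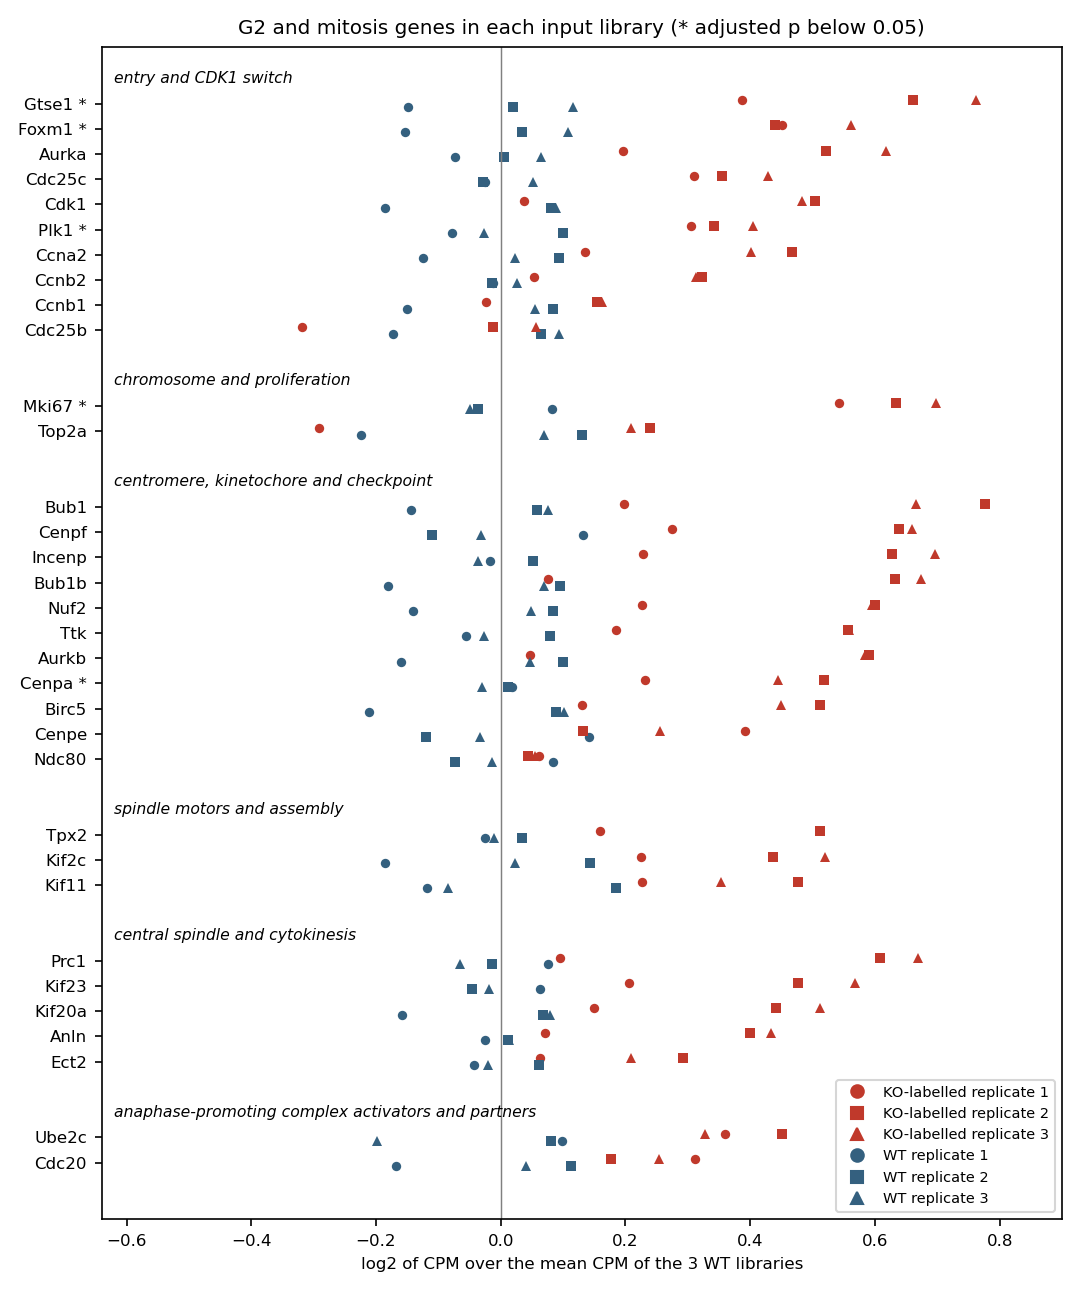
Each of the 33 genes is a row, grouped by role, and each point is the log2 ratio of CPM in 1 library to the mean CPM of the 3 WT libraries, with KO-labelled libraries in red and WT libraries in blue. In 22 genes KO-labelled replicate 1 (red circle) lies between the WT libraries and the other 2 KO-labelled libraries.

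The 3 KO-labelled libraries did not carry this difference equally. Relative to the WT mean, the median gene of the group stood 0.20 log2 units higher in KO-labelled replicate 1, 0.48 higher in replicate 2 and 0.48 higher in replicate 3. Replicate 1 lay above all WT libraries but below the other 2 KO-labelled libraries for 22 genes, and at or below the highest WT library for 7, namely Bub1b, Aurkb, Cdk1, Ccnb1, Ndc80, Cdc25b and Top2a. For Foxm1, Ube2c, Cdc20 and Cenpe it was as high as at least 1 of the other 2. With that library left out, 27 genes rose and none fell, in a fit in which 19.8% of all genes rose and 16.9% fell. With WT replicate 1 left out, 1 gene, Mki67, rose and none fell (0.332% of all genes rose and 0.227% fell). With KO-labelled replicate 2, KO-labelled replicate 3 or WT replicate 3 left out, none of the 33 was called. Over all genes 0.00527% were higher without KO-labelled replicate 2, 0.00527% without KO-labelled replicate 3, and 0.0158% higher and 0.0105% lower without WT replicate 3. Without WT replicate 2 no gene of the table was called. The median log2 fold change ran from 0.34 to 0.48 over those 6 fits. DESeq2's Wald test on all 6 libraries called 23 genes higher and none lower, beside 11.8% of all genes higher and 7.1% lower. edgeR with DESeq2's size factors called 3 higher, beside 2.67% of all genes higher and 1.47% lower. With no filter on low counts it called 1 (0.2% of all genes higher and 0.117% lower), and with the replicate number as a block 0 (0.237% higher and 0.137% lower).

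**Figure D2:**
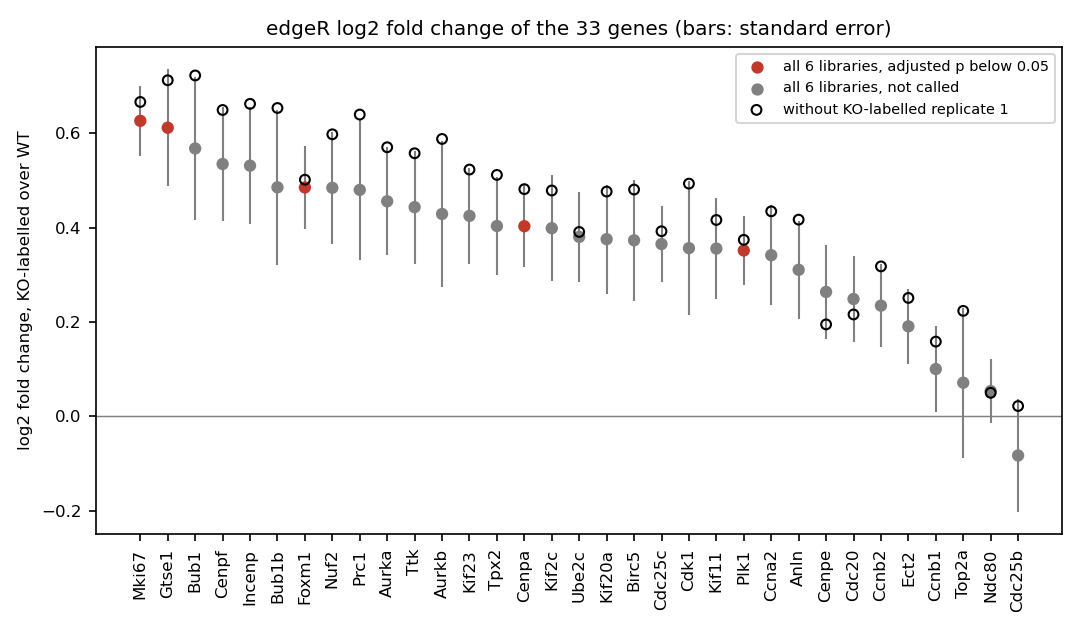
Log2 fold change of each gene, KO-labelled over WT, in order of size, with bars of 1 standard error; red points passed the adjusted p threshold with all 6 libraries, grey points did not, and open circles are the fit without KO-labelled replicate 1. Values with all libraries run from -0.08 for Cdc25b to 0.63 for Mki67, and for most genes the open circle lies above the filled point.

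Mki67 had the lowest p of the group. It encodes Ki-67, a large protein that coats mitotic chromosomes and keeps them apart, and it measured 597, 636 and 665 CPM in the KO-labelled libraries against 434, 399.6 and 396 CPM in the WT libraries. The groups did not overlap, and replicate 1 was close to the other 2 KO-labelled libraries. The log2 fold change was 0.63 with a standard error of 0.074 (edgeR adjusted p = 0.0200). It was the only gene of the 33 still called when WT replicate 1 was left out or when no filter on low counts was used.

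Foxm1, the transcription factor that drives the G2 and mitosis programme together with MuvB, measured 86.1, 85.3 and 92.9 CPM in the KO-labelled libraries and 56.6, 64.5 and 67.8 CPM in the WT libraries. The 3 KO-labelled values were close together and well above the WT values, and log2 fold change was 0.49 with a standard error of 0.087 (edgeR adjusted p = 0.0355). Gtse1 encodes a microtubule-binding protein of G2 and mitosis that also binds p53. It measured 37.2, 45.0 and 48.3 CPM in the KO-labelled libraries and 25.7, 28.9 and 30.9 CPM in the WT libraries, again without overlap (log2 fold change 0.61 ± 0.12, adjusted p = 0.0428). Plk1, the polo-like kinase of mitotic entry, spindle assembly and cytokinesis, measured 125, 129 and 134 CPM in the KO-labelled libraries and 96.0, 109 and 99.5 CPM in the WT libraries. Its groups were separate and its difference small, at 0.35 ± 0.074 on the log2 scale (adjusted p = 0.0465). Cenpa encodes the histone H3 variant that marks centromeres and measured 132, 160.5 and 152 CPM in the KO-labelled libraries and 114, 113 and 109.7 CPM in the WT libraries. Replicate 1 was the lowest KO-labelled library but still above every WT library (log2 fold change 0.40 ± 0.087, adjusted p = 0.0492). Cdc25c and Cenpf lay just outside the threshold, with adjusted p-values of 0.0500 and 0.0515, so the boundary between called and not called genes of this group is not a gap in the data.

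All 5 genes that rose carried both an m6A peak and a YTHDF2 RIP peak in the lists as deposited. The only RIP peaks of Gtse1 and Cenpa had deposited scores of 6e-05 and 4.7e-05. Both drop out at a score at or below 1e-05. Stretches of 4 of the 5 genes are printed to show what the m6A and RIP peaks cover. The sequences are exonic GENCODE M21 transcript sequence in GRCm38, the assembly of mm10, read 5′ to 3′ on the transcript strand. Capitals mark GGAC followed by any base but G, a form of the motif in which m6A is deposited. In Mki67, chr7:135697627-135697866 (minus strand, coding part of exon 12) is a RIP peak inside both m6A lists. In Foxm1, chr6:128373689-128373959 (plus strand, coding part of exon 8) is the stretch that a RIP peak and both m6A lists share. In Gtse1, chr15:85868882-85869001 (plus strand, coding, exon 6) is the gene's only RIP peak and lies outside its m6A peaks. In Plk1, chr7:122164021-122164140 (plus strand, coding, exon 5) is the WT m6A peak, which no RIP peak overlaps.
Mki67: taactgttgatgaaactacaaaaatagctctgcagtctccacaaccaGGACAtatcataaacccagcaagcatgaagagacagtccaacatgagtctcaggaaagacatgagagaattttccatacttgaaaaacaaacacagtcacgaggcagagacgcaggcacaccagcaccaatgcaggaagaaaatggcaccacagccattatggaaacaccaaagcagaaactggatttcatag
Foxm1: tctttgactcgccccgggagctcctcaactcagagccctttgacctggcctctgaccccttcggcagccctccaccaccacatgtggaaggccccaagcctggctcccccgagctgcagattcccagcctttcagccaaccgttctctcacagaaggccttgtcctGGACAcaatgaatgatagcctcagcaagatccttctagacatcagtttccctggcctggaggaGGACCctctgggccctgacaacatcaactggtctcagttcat
Gtse1: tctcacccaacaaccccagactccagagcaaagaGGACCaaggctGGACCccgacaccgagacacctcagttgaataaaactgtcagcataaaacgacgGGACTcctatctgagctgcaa
Plk1: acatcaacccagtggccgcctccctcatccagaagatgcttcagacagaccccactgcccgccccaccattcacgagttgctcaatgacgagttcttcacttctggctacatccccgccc
The Mki67 stretch holds 1 such motif in 240 bases, the Foxm1 stretch 2 in 271, the Gtse1 RIP peak 3 in 120, and the Plk1 m6A peak 0 in 120. All 4 stretches were taken from genes that rose and differ in kind, so they allow no comparison with genes that did not rise.

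Among the 10 genes of mitotic entry and the CDK1 switch, 3 rose (Foxm1, Gtse1 and Plk1) and 7 did not pass. Groups were without overlap, with KO-labelled values higher, in 7 of the 10. Over all genes tested, 2.99% rose and 17.7% were without overlap in that direction. The median log2 fold change of the 10 was 0.35. Cdk1, the kinase itself, measured 219.7, 303 and 299 CPM in the KO-labelled libraries and 188, 227 and 228 CPM in the WT libraries. Replicate 1 fell within the WT range while the other 2 exceeded it (log2 fold change 0.36 ± 0.14, edgeR adjusted p = 0.148). Ccnb1, its main mitotic cyclin, had 215, 243 and 244 CPM in the KO-labelled libraries and 197, 231 and 227 CPM in the WT libraries. The groups overlapped and the fold change was among the smallest, 0.10 on the log2 scale (adjusted p = 0.500). Ccnb2, the second B-type cyclin, had 124 ± 12.8 CPM in KO-labelled cells and 106 ± 1.69 CPM in WT cells (SD, n = 3 each). Its values did not overlap, and it did not pass (adjusted p = 0.132).

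Ccna2, the cyclin of S phase and G2, had 206, 259.7 and 248 CPM in the KO-labelled libraries and 172, 200.5 and 191 CPM in the WT libraries. The groups were separate, with replicate 1 nearest to WT (log2 fold change 0.34 ± 0.11, edgeR adjusted p = 0.0912). Aurka, the centrosomal kinase that activates PLK1, had 144, 180.2 and 193 CPM in the KO-labelled libraries and 119, 126 and 131 CPM in the WT libraries. It showed no overlap and a log2 fold change of 0.46 ± 0.11 (adjusted p = 0.0617). The CDC25 phosphatases remove inhibitory phosphates from CDK1, and their genes differed in pattern. Cdc25c had 40.2 ± 1.68 CPM in KO-labelled cells and 31.2 ± 1.00 CPM in WT cells, with no overlap. Cdc25b had 243 ± 32.4 CPM in KO-labelled cells and 258 ± 25.3 CPM in WT cells, with overlap, and was the only gene with a negative fold change (-0.08, adjusted p = 0.679). Whether the 2 fold changes differ was not tested. With KO-labelled replicate 1 left out, 8 of these 10 genes were called higher, and the fold change of Cdc25b changed sign to 0.02. That fit called 19.8% of all genes higher and 16.9% lower.

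The 2 genes most used as proliferation markers stood apart from each other in these libraries. Beside the values of Mki67 above, Top2a, the topoisomerase that untangles replicated DNA, had 380.3, 549 and 538 CPM in the KO-labelled libraries and 398, 509 and 488 CPM in the WT libraries. The groups overlapped: the lowest of the 6 values was KO-labelled replicate 1 and the 2 highest were the other 2 KO-labelled libraries. The log2 fold change was 0.07 ± 0.16 (edgeR adjusted p = 0.795). It turned negative when KO-labelled replicate 2, KO-labelled replicate 3 or WT replicate 1 was left out, with a range over the 6 fits of -0.04 to 0.22. The difference between the 2 genes' responses was not tested.

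Of 11 genes of the centromere, kinetochore and spindle checkpoint, 1 rose (Cenpa), 10 did not pass and 7 were without overlap. Over all genes tested, 2.99% rose and 17.7% were without overlap with KO-labelled values higher. The median log2 fold change of the 11 genes, 0.44, was the highest of the roles with 3 or more genes. Bub1, a checkpoint kinase at the kinetochore, had 107, 160.0 and 148 CPM in the KO-labelled libraries and 84.5, 97.2 and 98.3 CPM in the WT libraries. No value overlapped, but replicate 1 lay nearer to WT than to the other 2, and the standard error of the log2 fold change of 0.57 was 0.15 (edgeR adjusted p = 0.0691). Bub1b, which encodes the inhibitory checkpoint protein BUBR1, had 222 ± 47.7 CPM in KO-labelled cells and 159 ± 16.3 CPM in WT cells. Ttk, the checkpoint kinase MPS1, had 43.5 ± 6.20 CPM in KO-labelled cells and 32.0 ± 1.57 CPM in WT cells. Both had adjusted p-values above 0.05 (0.108 for Bub1b and 0.0705 for Ttk), and the groups overlapped for Bub1b only.

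The chromosomal passenger complex, which corrects wrong attachments of chromosomes to the spindle, is represented by Aurkb, Incenp and Birc5. Aurkb, its kinase, had 90.9, 133 and 132 CPM in the KO-labelled libraries and 78.7, 94.3 and 91.0 CPM in the WT libraries. Replicate 1 lay within the WT values and the other 2 above them (log2 fold change 0.43 ± 0.15, edgeR adjusted p = 0.121). Incenp, its scaffold, had 294 ± 48.9 CPM in KO-labelled cells and 203 ± 6.65 CPM in WT cells, and Birc5, which encodes survivin, had 124 ± 16.9 CPM in KO-labelled cells and 96.0 ± 11.3 CPM in WT cells. Neither overlapped between groups and neither passed (adjusted p = 0.0543 for Incenp and 0.110 for Birc5).

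Ndc80 and Nuf2 encode partners in the complex that grips spindle microtubules, and the groups were separate for only 1 of them. Nuf2 had 119 ± 16.8 CPM in KO-labelled cells and 84.9 ± 6.93 CPM in WT cells, without overlap (log2 fold change 0.48, edgeR adjusted p = 0.0587). Ndc80 had 98.4, 97.2 and 98.0 CPM in the KO-labelled libraries and 99.8, 89.6 and 93.3 CPM in the WT libraries, with overlap (log2 fold change 0.05 ± 0.068, adjusted p = 0.631). Neither gene passed the threshold, and the difference between their fold changes was not tested. Cenpf, a large protein of the outer kinetochore, had 107 ± 15.3 CPM in KO-labelled cells and 73.9 ± 6.39 CPM in WT cells. Cenpe, the kinetochore motor that aligns chromosomes, had 195, 163 and 178 CPM in the KO-labelled libraries and 164, 137 and 145 CPM in the WT libraries. Here replicate 1 was the highest of all 6 libraries, and the lowest KO-labelled value was just below the highest WT value (log2 fold change 0.26 ± 0.099, adjusted p = 0.133). Without KO-labelled replicate 1, 9 of the 11 genes were called higher, Cenpe and Ndc80 being the exceptions. That fit called 19.8% of all genes higher and 16.9% lower.

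The 3 genes of spindle motors and assembly were all without overlap between groups and none passed. Over all genes tested, 17.7% were without overlap with KO-labelled values higher and 2.99% passed as higher. Kif11, the motor that pushes spindle poles apart, had 70.9, 84.3 and 77.5 CPM in the KO-labelled libraries and 55.8, 68.9 and 57.2 CPM in the WT libraries. The lowest KO-labelled value was close to the highest WT value (log2 fold change 0.36 ± 0.11, edgeR adjusted p = 0.0861). Tpx2, which activates Aurora A on the spindle, had 516 ± 69.6 CPM in KO-labelled cells and 390.0 ± 8.48 CPM in WT cells. Kif2c, a microtubule depolymerase of the centromere, had 113 ± 11.7 CPM in KO-labelled cells and 85.8 ± 9.69 CPM in WT cells. All 3 were called higher without KO-labelled replicate 1, in a fit that called 19.8% of all genes higher and 16.9% lower.

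The 5 genes of the central spindle and cytokinesis gave the same picture, with no overlap in any, no call in any with all libraries, and a call as higher in all 5 without KO-labelled replicate 1. Over all genes tested, 17.7% were without overlap with KO-labelled values higher, and 2.99% were called higher with all libraries. Without KO-labelled replicate 1, 19.8% of all genes were called higher and 16.9% lower. Prc1, which bundles microtubules of the central spindle, had 205 ± 41.7 CPM in KO-labelled cells and 147 ± 7.24 CPM in WT cells, and its 3 KO-labelled values of 157, 224 and 233 CPM were the most spread of the 5. Kif23 and Kif20a encode motors of the central spindle. Kif23 had 140.1 ± 17.7 CPM in KO-labelled cells and 104 ± 4.11 CPM in WT cells, and Kif20a had 170.5 ± 21.8 CPM in KO-labelled cells and 131 ± 11.9 CPM in WT cells. Anln, the scaffold of the contractile ring, had 275 ± 36.6 CPM in KO-labelled cells and 222 ± 3.32 CPM in WT cells. Ect2, which activates RhoA to start furrowing, had the smallest fold change of the 5 (log2 0.19), with 83.7 ± 6.68 CPM in KO-labelled cells and 73.4 ± 2.79 CPM in WT cells.

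The anaphase-promoting complex is represented by its activator and its ubiquitin-conjugating enzyme, and neither passed with all libraries. Cdc20, the activator and the target of the spindle checkpoint, had 179, 163 and 172 CPM in the KO-labelled libraries and 128, 155 and 148 CPM in the WT libraries. The groups were separate by a small margin, and replicate 1 was the highest (log2 fold change 0.25 ± 0.090, edgeR adjusted p = 0.123). Ube2c, the conjugating enzyme, had 215, 229.6 and 210.5 CPM in the KO-labelled libraries and 179.6, 178 and 146 CPM in the WT libraries, also without overlap (log2 fold change 0.38 ± 0.096, adjusted p = 0.0626). Without KO-labelled replicate 1, 1 of the 2, Ube2c, was called higher, in a fit that called 19.8% of all genes higher and 16.9% lower.

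Corrected for length, the levels of the group spanned a wide range in both groups. Per kilobase of exon, Tpx2 was highest, at a mean of 110.3 CPM per kilobase in KO-labelled cells and 83.4 in WT cells, and Cenpf was lowest, at 6.94 in KO-labelled cells and 4.79 in WT cells. Exons of 10 of the 33 genes overlap another annotated gene, 2 of them on the same strand, and whether counting used strand is not stated by the labels. Beside Kif20a lies Cdc23 with 73.6 CPM in KO-labelled cells and 73.5 CPM in WT cells, beside Cdc20 lies Elovl1 with 92.9 CPM in KO-labelled cells and 95.9 CPM in WT cells, and beside Ccna2 lies Exosc9 with 46.4 CPM in KO-labelled cells and 47.1 CPM in WT cells. For Plk1 and Foxm1 the overlapping genes had under 0.6 CPM in each group's mean.

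Genes of the same processes outside the group were read from lists of other cell cycle genes. Beside their counts stand the shares over all genes tested, 2.99% higher and 1.54% lower with all libraries, and 19.8% higher and 16.9% lower without KO-labelled replicate 1. Of 35 other kinetochore and checkpoint genes, 5 rose and none fell, with a median log2 fold change of 0.26, and 17 rose and 1 fell without KO-labelled replicate 1. Among them Ska3, a subunit of the SKA complex at the kinetochore, had 34.0 ± 5.00 CPM in KO-labelled cells and 21.5 ± 1.60 CPM in WT cells (edgeR adjusted p = 0.0405), and Hjurp, the chaperone that loads CENP-A, had 398 ± 60.3 CPM in KO-labelled cells and 276 ± 3.67 CPM in WT cells (adjusted p = 0.0491). Spc24, a subunit of the NDC80 complex, and Sgo1, the protector of centromeric cohesion, also rose (log2 fold change 0.46 and 0.38). Of 39 other spindle and cytokinesis genes, 10 rose and none fell, with a median of 0.36, and 28 rose without KO-labelled replicate 1. The 4 of lowest p were Shcbp1 (0.69), Ckap2 (0.40), Ckap2l (0.64) and Cdca3 (0.49). CKAP2 binds spindle microtubules, and it measured 113, 117 and 120.2 CPM in the KO-labelled libraries and 87.7, 87.5 and 90.0 CPM in the WT libraries, with the 3 KO-labelled libraries close together.

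Of 20 genes of chromosome structure, 2 rose and none fell (median 0.33): Smc2, a core condensin subunit, by 0.51, and Esco2, a cohesin acetyltransferase, by 0.55 on the log2 scale. Without KO-labelled replicate 1, 14 rose and 1 fell. Of 16 other genes of mitotic entry, 1 rose (median 0.27), the kinase gene Pbk, with 92.2 ± 16.1 CPM in KO-labelled cells and 54.6 ± 5.75 CPM in WT cells (edgeR adjusted p = 0.0380). In that list 8 rose and 1 fell without KO-labelled replicate 1. Wee1, the kinase that holds CDK1 inactive, had 34.3, 49.1 and 46.8 CPM in the KO-labelled libraries and 29.8, 37.1 and 32.9 CPM in the WT libraries, and did not pass (adjusted p = 0.149). Of 17 subunits and regulators of the anaphase-promoting complex, 1 rose and none fell, and the median was 0.08, with 5 higher and 2 lower without KO-labelled replicate 1, where 19.8% of all genes were higher and 16.9% lower. The gene that rose, Fbxo5, encodes EMI1, an inhibitor of the complex, and had 48.1, 58.8 and 57.6 CPM in the KO-labelled libraries and 29.7, 37.1 and 34.6 CPM in the WT libraries (log2 fold change 0.70 ± 0.12, adjusted p = 0.0341).

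Of 13 genes of the DREAM and MuvB complexes, 2 rose and none fell, with a median of 0.22, and 7 rose without KO-labelled replicate 1. Mybl2, which encodes B-MYB, had 105, 139 and 150.0 CPM in the KO-labelled libraries and 72.7, 85.4 and 77.5 CPM in the WT libraries (log2 fold change 0.74 ± 0.14, edgeR adjusted p = 0.0379). Lin54, the MuvB subunit that contacts DNA, had 41.6, 52.5 and 47.2 CPM in the KO-labelled libraries and 33.5, 34.0 and 31.6 CPM in the WT libraries (0.51 ± 0.10, adjusted p = 0.0431). Of 35 genes of the G1/S transition and replication, 9 rose and none fell, with a median of 0.53, and 31 rose without KO-labelled replicate 1. E2f1, the transcription factor of that transition, had 87.9, 118 and 109.6 CPM in the KO-labelled libraries and 59.5, 57.9 and 58.0 CPM in the WT libraries (0.85 ± 0.11, adjusted p = 0.0227). Ccne1, Prim1 and Gins1, for a cyclin, a primase subunit and a subunit of the replicative helicase complex, differed by 0.81, 0.72 and 0.64 on the log2 scale, with all 3 past the threshold. The higher level in KO-labelled cells was thus not limited to genes of G2 and mitosis, and whether the lists differ from each other was not tested.

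Of 16 CDK inhibitors and other brakes on the cycle, 2 rose and none fell, with a median of 0.04, and 6 rose and 2 fell without KO-labelled replicate 1, where 19.8% of all genes rose and 16.9% fell. Those that rose were Btg2, an antiproliferative gene with 7.04 ± 1.64 CPM in KO-labelled cells and 3.51 ± 0.241 CPM in WT cells, and Cdkn2d, which encodes the CDK4 and CDK6 inhibitor p19, with 72.7, 130.4 and 127 CPM in the KO-labelled libraries and 53.2, 55.5 and 60.1 CPM in the WT libraries (edgeR adjusted p = 0.0426 for Btg2 and 0.0497 for Cdkn2d). Cdkn1a, which encodes the p53 target p21, had 43.1, 101 and 90.5 CPM in the KO-labelled libraries and 51.0, 52.1 and 50.9 CPM in the WT libraries, and did not pass (adjusted p = 0.194). Its replicate 1 lay below all WT libraries and the other 2 far above, and without replicate 1 it was called higher (log2 fold change 0.90). Cdkn1b, for p27, had 106 ± 6.36 CPM in KO-labelled cells and 113 ± 0.819 CPM in WT cells and did not pass (adjusted p = 0.380).

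**Figure D3:**
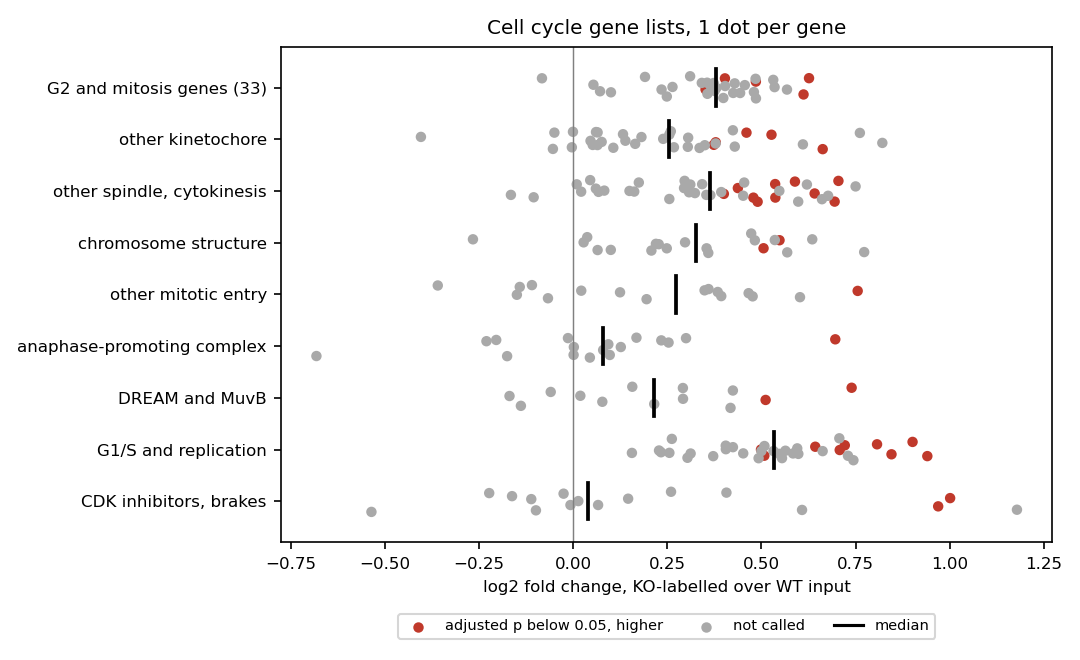
Each dot is the log2 fold change of 1 gene, KO-labelled over WT, in the 33 genes and 8 other cell cycle lists; red dots passed the adjusted p threshold, and black bars are list medians. Medians run from 0.04 for CDK inhibitors and brakes to 0.53 for G1/S and replication, with 0.38 for the G2 and mitosis genes.

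Most of the group carried m6A peaks. A peak was listed for 26 of the 33 genes in KO-labelled cells (69 peaks) and for 29 in WT cells (78 peaks), while over all genes tested 45.0% had a peak in the KO-labelled list and 48.7% in the WT list. YTHDF2 RIP peaks were listed for 19 of the 33 (80 peaks), beside 34.3% of all genes tested. At a score at or below 1e-05 the counts were 26 and 29 genes with m6A peaks in the same order of lists and 16 with RIP peaks, beside 44.8%, 48.4% and 29.8% of all genes tested. Peak calling needs reads, so these shares rest in part on how strongly a gene is expressed, and no comparison at matched level was made. Each list comes from 1 group with no replicate error. Exact Clopper-Pearson intervals (95%) on shares of peaks cover counting error only, and they treat peaks of the same gene as independent.

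The m6A peaks of the group were mostly shared between the lists. Of 69 KO-labelled peaks, 68 overlapped a WT peak by at least 1 exonic base (98.6%, interval 92.2% to 99.96%), and of 78 WT peaks, 72 overlapped a KO-labelled peak (92.3%, interval 84.0% to 97.1%). Over all genes the shares were 89.3% of KO-labelled peaks and 80.3% of WT peaks. The KO-labelled peak without a partner was a 61-base peak in Cenpe, and the 6 WT peaks without one lay in Ube2c, Ccnb1, Ccnb2 and Foxm1 and, with 2, in Top2a. For Ube2c, Ccnb1 and Ccnb2 that peak was the gene's only one. No m6A peak was listed in either group for Kif11, Ccna2, Ect2 and Cdc25b. The labels do not say how the authors combined replicates or set the threshold, so a peak in 1 list only is not a measured difference in methylation.

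**Figure D4:**
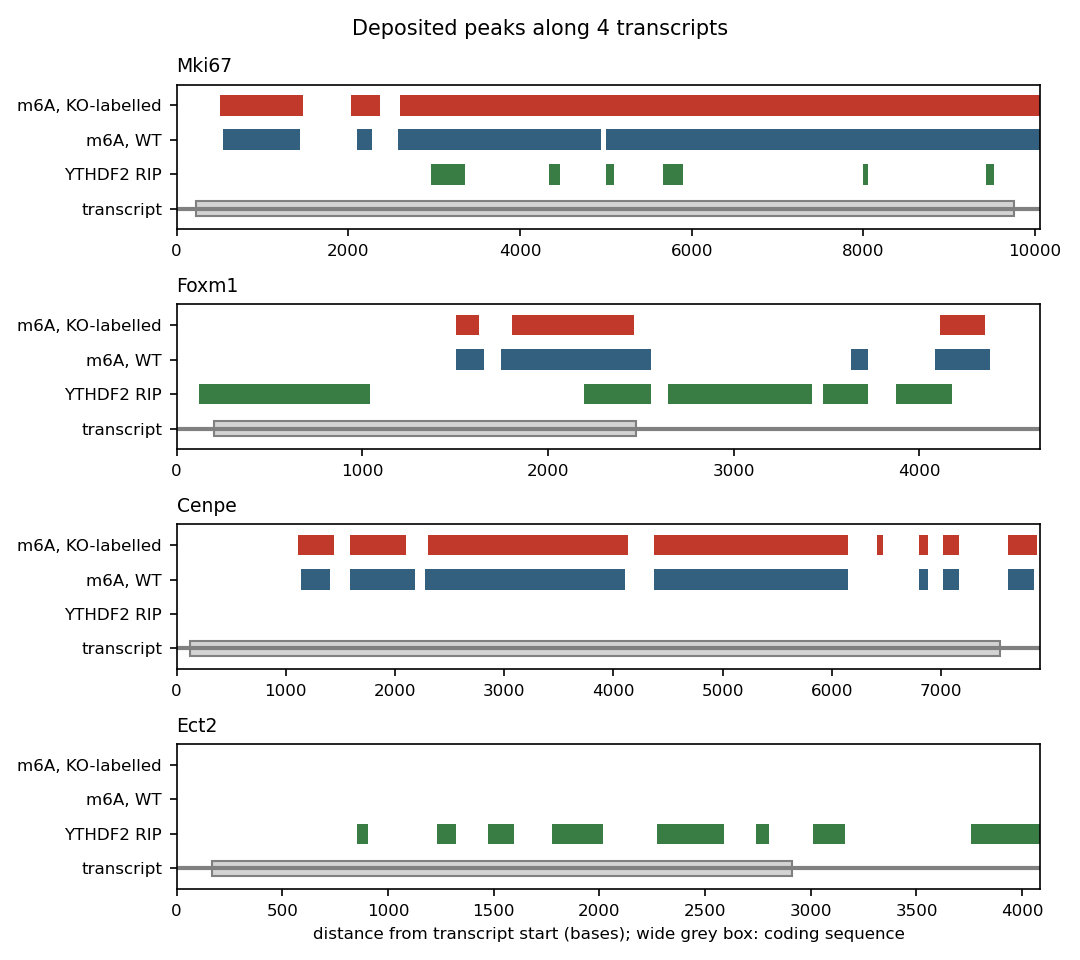
Deposited peaks along the longest coding transcript of 4 genes, in bases from the transcript start, with m6A peaks of KO-labelled cells in red, m6A peaks of WT cells in blue, YTHDF2 RIP peaks in green and the coding sequence as a wide grey box. Exonic pieces of peaks that do not lie wholly within an exon of that transcript are not drawn. Peaks cover most of Mki67 in both m6A lists, Cenpe has m6A peaks and no RIP peak, and Ect2 has RIP peaks and no m6A peak.

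Very long stretches of m6A signal marked the longest transcripts of the group. In Mki67, peaks covered 86.9% of the 10061-base transcript in the KO-labelled list and 84.5% in the WT list, and the widest single peak spanned 7456 exonic bases in the KO-labelled list and 5061 in the WT list (chr7:135689784-135698525). Cenpe was covered over 63.3% in the KO-labelled list and 62.5% in the WT list, and Cenpf over 67.1% in the KO-labelled list and 59.6% in the WT list. Peak blocks, the exonic pieces of a peak, were left out of these coverages where they did not lie wholly within an exon of the longest coding transcript. In coding sequence lay the centres of 53 of 66 KO-labelled peaks of the group (80.3%, interval 68.7% to 89.1%) and of 59 of 75 WT peaks (78.7%, interval 67.7% to 87.3%), against 62.4% of all KO-labelled peaks and 61.2% of all WT peaks. The share in 3′ UTRs was 16.7% in the KO-labelled list and 18.7% in the WT list, against 33.8% and 34.8% of all peaks in the same lists. Peaks whose centre lies off the longest coding transcript were left out of these counts. Cenpf and Cenpe, with 10 and 7 WT peaks, weigh heavily in them, and their transcripts are mostly coding (8994 of 11130 and 7416 of 7910 bases). How far this moves the shares was not tested.

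Summed over the marked genes, GGAC followed by any base but G was not denser inside these peaks as placed on the longest coding transcripts. Peak blocks not wholly within an exon of that transcript were counted as outside. The outside stretches thus hold some peak sequence, and how far this moves the densities was not tested. In the marked genes of the group it occurred 2.99 times per kilobase inside WT m6A peaks and 3.74 times outside them, while over all marked genes it occurred 4.88 times inside and 3.38 times outside. Read backwards, as a check of base composition, the same letters occurred 5.47 times per kilobase inside and 4.06 times outside the peaks of the group. Without Mki67, Cenpf and Cenpe the densities were 2.91 inside and 3.77 outside. Among these 3 long transcripts the order differed: Cenpf had 3.62 per kilobase inside and 2.67 outside, Mki67 3.06 inside and 5.14 outside, and Cenpe 2.23 inside and 4.04 outside.

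RIP peaks were numerous in many of the genes with several m6A peaks. Of the 9 genes with 3 to 5 WT m6A peaks, 8 had 4 to 8 RIP peaks and the other, Incenp, had none. Cenpf and Cenpe, with more WT m6A peaks (10 and 7), had none either. Among genes with 2, Bub1 had 5, Kif20a 4, Bub1b 2, Kif2c 1, and Aurka, Birc5 and Ndc80 0. These bins were set after the values were seen, and the pattern was neither tested nor set beside all genes. Of the 15 genes with 0 or 1 WT m6A peak, all but Ect2 had 0 to 4. Some genes went against this. Ect2, with no m6A peak, had the most RIP peaks of the group (9), followed by Anln (8), Foxm1 (7) and Top2a (7). This order depends on the score asked for. Ect2 peaks with scores of 8.1e-05, 0.00018 and 0.00079 drop out at a score at or below 1e-05. There the most in a gene was 7, and Ect2 was no longer first. Cenpf, with 8 m6A peaks in the KO-labelled list and 10 in the WT list, Cenpe, with 8 in the KO-labelled list and 7 in the WT list, and Incenp, with 4 in each, had no RIP peak. Of 80 RIP peaks, 35 overlapped a WT m6A peak (43.8%, interval 32.7% to 55.3%), against 34.2% of all RIP peaks. Where at least 50% of the exonic bases of a peak had to be covered, 25 of 80 did (31.3%, interval 21.3% to 42.6%), against 18.3% of all RIP peaks, so both shares depend on the overlap asked for. Of 78 WT m6A peaks, 33 overlapped a RIP peak (42.3%, interval 31.2% to 54.0%), against 48.3% of all WT m6A peaks. In Mki67, all 6 RIP peaks lay inside m6A peaks, but WT m6A peaks covered 84.5% of that transcript and left little outside. In Plk1, Gtse1, Cenpa, Bub1b and Cdk1 no RIP peak overlapped a WT m6A peak.

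By their peaks, 18 of the 33 genes had both a WT m6A peak and a RIP peak, 11 had m6A only, 1 (Ect2) had RIP only and 3 (Kif11, Ccna2 and Cdc25b) had neither. Of the 18969 genes tested, 5544 had both. The 5 genes that rose were all among the 18, beside 5.32% of all genes with both marks that rose. This class depends on the score asked for. At a score at or below 1e-05, Gtse1, Cenpa and Kif2c leave it, since their single RIP peaks scored 6e-05, 4.7e-05 and 2.3e-05. The median log2 fold change was 0.41 for the 18 and 0.37 for the 11 with m6A only, against 0.09 and 0.01 for all genes of the same classes. The fold changes of the 11 ran from 0.05 to 0.53, inside the range of the 18, which ran from 0.07 to 0.63. Whether fold change differs between these classes within the group was not tested.

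Promoters of the group carried the letters of elements known from this class of gene. MuvB binds the cell cycle genes homology region, written TTTGAA or TTCGAA, through LIN54, and NF-Y binds CCAAT boxes upstream of it. RefSeq promoters (GRCm38.p6) were found for 26 of the 33 genes and searched on both strands over the 250 bases before the start. None was found for Foxm1, Cdc25c, Incenp, Tpx2, Kif20a, Ccna2 and Aurkb. For 22 of the 26 the RefSeq start lay within 50 bases of the GENCODE start. It lay 64 bases off in Aurka, 84 in Ccnb1, 109 in Cenpa and 3867 in Kif2c, whose match to the homology region is counted below. TTTGAA or TTCGAA stood in 11 of the 26 (42.3%), against 12.5% of the promoters of 10000 genes tested, and within 100 bases of the start in 7 (26.9%), against 3.31%. CCAAT stood in 21 of the 26 (80.8%), against 37.3%, and within 100 bases in 18 (69.2%), against 24.1%. AAGTTT, the first element read backwards, stood in 2 of the 26 (7.69%), against 10.2%, and TAACC, the second read backwards, in 7 (26.9%), against 20.4%. A match is a description of the letters and not of binding, which was not measured here.

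The 200 bases before the RefSeq start are printed for 4 genes that hold the element, Mki67 (chr7:135716380-135716579, minus strand), Ube2c (chr2:164769729-164769928, plus strand), Kif11 (chr19:37376182-37376381, plus strand) and Prc1 (chr7:80294276-80294475, plus strand). Capitals mark TTTGAA or its complement TTCAAA, and CCAAT or its complement ATTGG, in the direction of transcription, and positions are those of a match's first base. The RefSeq start lies 18 bases from the GENCODE start for Mki67, 31 for Ube2c, 21 for Kif11 and 29 for Prc1.
Mki67: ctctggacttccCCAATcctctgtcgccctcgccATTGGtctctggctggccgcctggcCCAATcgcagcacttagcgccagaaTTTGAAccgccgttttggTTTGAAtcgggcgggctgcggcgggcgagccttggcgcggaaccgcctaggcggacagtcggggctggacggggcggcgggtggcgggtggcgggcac
Ube2c: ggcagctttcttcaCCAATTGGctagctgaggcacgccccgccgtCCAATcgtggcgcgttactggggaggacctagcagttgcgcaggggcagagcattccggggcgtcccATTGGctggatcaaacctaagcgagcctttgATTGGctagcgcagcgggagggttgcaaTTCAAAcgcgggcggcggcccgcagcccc
Kif11: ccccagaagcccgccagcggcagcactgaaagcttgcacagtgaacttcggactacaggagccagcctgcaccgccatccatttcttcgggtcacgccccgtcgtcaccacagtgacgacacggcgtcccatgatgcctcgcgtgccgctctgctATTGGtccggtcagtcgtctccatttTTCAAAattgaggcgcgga
Prc1: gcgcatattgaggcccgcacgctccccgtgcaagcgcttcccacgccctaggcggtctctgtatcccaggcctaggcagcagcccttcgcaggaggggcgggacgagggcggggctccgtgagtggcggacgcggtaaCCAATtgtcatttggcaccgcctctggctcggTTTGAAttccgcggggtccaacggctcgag
In Ube2c, Kif11 and Prc1 the element stands 29, 19 and 30 bases before the start, with a CCAAT box 57, 45 and 62 bases before it. In Mki67, the gene with the lowest p, 2 copies stand farther upstream, 116 and 98 bases before the start, with 3 CCAAT boxes upstream of them. In Ube2c, CCAATTGG holds 2 overlapping boxes on opposite strands.

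Genes with and without these letters were spread over the range of fold changes. Top2a, with 4 matches to the homology region and 6 CCAAT boxes, had a log2 fold change of 0.07, and Cdk1, with 2 matches, one of them 15 bases before the start, had 0.36. Gtse1, Plk1 and Cenpa, which rose, had no match to the homology region in this window. Foxm1, which also rose, had no RefSeq promoter and was not searched. Ndc80, Nuf2, Anln and Birc5 had neither element there, and their log2 fold changes were 0.05, 0.48, 0.31 and 0.37.

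**Figure D5:**
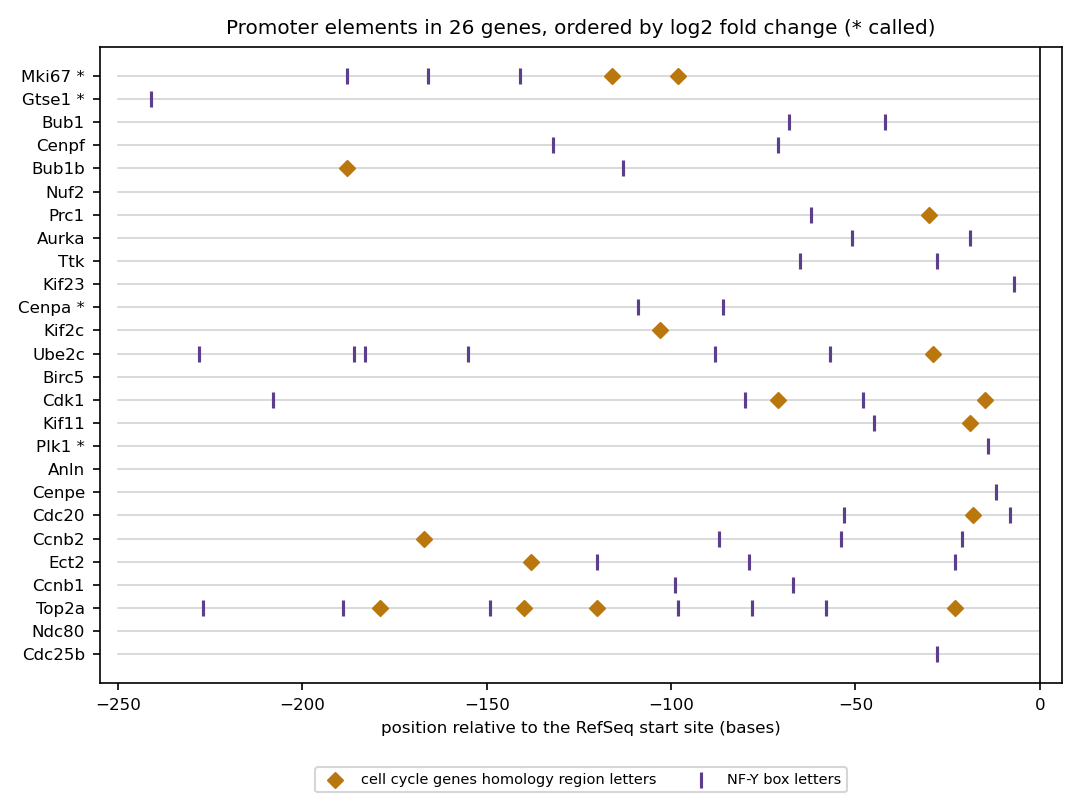
Matches to the homology region (diamonds) and to the CCAAT box (bars) on either strand in the 250 bases before the RefSeq start of 26 genes, ordered by log2 fold change from Mki67 at the top to Cdc25b at the bottom. Diamonds stand in 11 genes across the whole order, and those within 100 bases of the start are in 7.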

How the data were processed

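The authors deposited raw gene counts of the 6 input libraries and 3 peak lists (Ythdf2-KO m6A, WT m6A and YTHDF2 RIP). The count table held 0 columns of other samples. Per the file headers, each peak has a score. No deposited score was above 0.003, and scores were taken to be p-values for that reason only. Per the submitters' processing notes, HISAT2, HOMER, ChIPseeker and mm10 belong to the processing, without their roles. Counter, strand setting and peak caller are unnamed there. Replicates differed by more than sampling noise (chi-square per degree of freedom at least 8.97). On that scale KO-labelled replicate 1 differed by 73.4 and 73.5 from KO-labelled replicates 2 and 3. From WT replicates 1, 2 and 3 it differed less, by 30.5, 48.0 and 48.8. WT replicate 1 differed by 30.9 and 29.0 from WT replicates 2 and 3.

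edgeR 4.0.16 tested the counts by quasi-likelihood (glmQLFTest, TMM, filterByExpr, Benjamini-Hochberg at 0.05) in R 4.3.3 over 18969 genes, all 33 described genes among them. Standard errors are the size of the log2 fold change divided by the square root of F. On simulated counts the test recovered 26% of 1.5-fold and 67% of 2-fold changes in the KO-labelled to WT comparison over these 18969 genes. It made 107 calls there, of which 14 fell on genes that had not been changed. Alternatives were DESeq2 1.42.0 (size factors, and its Wald test), no filter on low counts, the replicate number as a block, each library left out, a score at or below 1e-05, and a 50% overlap of peaks. Overlaps by exonic bases used bedtools 2.31.1 and GENCODE M21. The labels give both groups replicate numbers 1 to 3. They do not say that equal numbers mark a shared culture, so same-numbered libraries were not treated as pairs. In their deviations from group means, same-numbered libraries correlated at 0.05, 0.11 and 0.05, and libraries of unlike number at -0.089 to 0.024.

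Per-library values are given for genes past the threshold and 13 central genes of the group (10 of them not past it); those of Ndc80, Ube2c and Prc1 were added after they were seen. Of each other list, at most the 4 genes past the threshold with lowest p are named, with Mybl2, Fbxo5, Wee1, Cdkn1a, Cdkn1b and E2f1. Genes singled out for their peaks or promoter elements, and the markers named, were chosen after their values were seen. The described genes and all lists were chosen with earlier results of these data known.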

Additional observations from a re-analysis of the deposited data

How the results depend on the processing

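The number of the 33 genes called higher depended on the setting. It was 5 with all libraries in edgeR, 3 with DESeq2's size factors, 23 with DESeq2's Wald test, and 1 with no filter on low counts. It ran from 0 to 27 when a single library was left out. With the replicate number as a block, 0 were called, in a fit that called 45 genes higher and 26 lower over all genes. The numbers were not accepted as pairs, although each library correlated best with its own number in the other group, which is a hint from the data and not the design. No gene of the 33 was called lower in any of these fits. The median log2 fold change stayed within 0.34 to 0.48. The log2 fold changes of Top2a, Cdc25b and Ythdf2 changed sign when single libraries were left out, and none of these genes passed the threshold in any fit. Top2a ranged from -0.042 without WT replicate 1 to 0.22, Cdc25b from -0.17 to 0.022 without KO-labelled replicate 1, and Ythdf2 from -0.035 without WT replicate 1 to 0.13.

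Among the single-library fits of the 33 genes, 22 gained a call, 24 lost one, 4 changed sign and 148 did neither. Among the other alternatives, 18 gained a call, 11 lost one and 103 did neither. For the 29 named genes outside the group, single-library fits gained 5 calls, lost 110, changed 2 signs and left 57 as they were, and the other alternatives lost 41 and left 75. For the 33 genes, counts of genes with peaks and of overlapping peaks stayed within 1.5 times their value at the stricter score and at 50% overlap. Over all genes, RIP peaks overlapping a WT m6A peak fell to 4271 (18.3%) at 50% overlap, against 7983 (34.2%) at 1 base. Beyond 3 libraries per group, precision is limited by the unequal KO-labelled libraries, and peaks have no replicate error.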
